A study of Mus musculus with 22 samples.

Results

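The nuclear genes for the mitochondrial machinery of oxidative phosphorylation were followed through livers of mice given a nuclear receptor agonist for months. The members were chosen by gene symbol and detection, with earlier results of these data known. The symbol rule took probes whose platform symbol begins with Ndufa, Ndufb, Ndufc, Ndufs, Ndufv, Uqcr, Cox4i, Cox5, Cox6, Cox7, Cox8 or Atp5, together with Sdha, Sdhb, Sdhc, Sdhd, Cycs and Cyc1. The detection filter kept those detected (p under 0.05) on at least 3 of 22 arrays. Of 45281 probes on the array, 139 met the symbol rule, and 122 of them passed the detection filter. Where a gene had several kept probes the brightest stood for it, which left 82 member genes among 11975 genes tested. They comprised 35 genes of complex I, 4 of complex II, 8 of complex III, 11 of complex IV, 16 of complex V, cytochrome c, and 7 Ndufaf genes, which share the symbol prefix and code for complex I assembly factors. Ndufa4, once assigned to complex I, was counted with complex IV. Cox4i2, Cox6a2, Cox6b2, Cox7b2, Cox8b, Cox8c and Ndufaf6 had no probe past the filter. The member named Ndufs5-ps carries a pseudogene symbol, and its probe may not tell that locus from Ndufs5.

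All animals were female C3H mice and all RNA came from microdissected liver. The DENA plus TCPOBOP group (9 arrays) received the carcinogen diethylnitrosamine (DENA, 90 mg/kg, injected once into the peritoneum) and, after a recovery of 1 week, TCPOBOP by gavage (3 mg/kg, weekly) for 28 weeks. TCPOBOP, which activates the nuclear receptor CAR (constitutive androstane receptor), was given alone on the same weekly schedule for 42 weeks (7 arrays) or 28 weeks (3 arrays), and controls (3 arrays) were age-matched mice that received DMSO in corn oil. The control titles hold only an abbreviation, which was read as this vehicle group because the series design counts 3 controls. Per the labels hepatocellular carcinomas were seen at the end of both regimens, but which arrays hold tumour tissue, and how many mice stand behind them, is not stated.

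Oxidative phosphorylation passes electrons from NADH (complex I) and succinate (complex II) through coenzyme Q, complex III and cytochrome c to oxygen at complex IV, and the proton gradient built on the way drives ATP synthesis at complex V. Most subunits are coded in the nucleus and imported, while a small number, all in the catalytic or membrane core, are coded by mitochondrial DNA. Complex II is the exception, being coded wholly in the nucleus and serving also as the succinate dehydrogenase of the TCA cycle. Hepatocytes are rich in mitochondria and use this machinery to power gluconeogenesis, urea synthesis and fatty acid oxidation.

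Values are log2 of the authors' normalized intensity unless stated otherwise, and each change is a difference of group means with its standard error (SE). Detection ranged over 34.8% to 42.6% of probes among arrays, and 76 of the 82 members were detected on all 22 arrays. The 4 slides held 2 or 3 groups each, and slide 1 held no control. The CAR target genes Cyp2b10, Cyp2c55 and Gstm3 were higher in all 3 treated groups (3 of 3 called in each). Of 10 endothelial markers, 5 were lower in DENA plus TCPOBOP and 6 after 42 weeks of TCPOBOP, and their summed intensity was 2200 to 6434 and 1953 to 4178 in these groups, against 8282 to 9773 after 28 weeks and 9487 to 11026 in controls. Of 10 stellate and fibroblast markers 5 were lower in DENA plus TCPOBOP, and 4 lower and 1 higher at 42 weeks. Their summed intensity was 2398 to 8997 in DENA plus TCPOBOP and 2997 to 9328 at 42 weeks, against 13728 to 15297 at 28 weeks and 16774 to 18952 in controls, where Col1a1 and Col1a2 were not detected on any array. The 10 hepatocyte markers showed 2 lower and none higher in DENA plus TCPOBOP and at 42 weeks, and none called at 28 weeks. The falls were those of Alb (-0.94 and -1.19) and Fgb (-1.04 and -1.74). The sums overlapped between all groups (227370 to 273610 in DENA plus TCPOBOP, 248150 to 275950 at 42 weeks, 255750 to 277830 at 28 weeks and 242590 to 321930 in controls). They include genes near the highest intensity on the arrays (46395 before the logarithm), such as Trf and Apoa2 at means of 15.23 and 15.13, where a change is hard to see. Of 10 Kupffer cell and macrophage markers 2 were higher in DENA plus TCPOBOP, 4 higher and 1 lower at 42 weeks, and 5 higher at 28 weeks, with sums of 4756 to 9411, 5050 to 11160 and 8826 to 11598, against 3857 to 4750 in controls. Of 4 red cell markers 2 were lower at 42 weeks and none was called in the other groups, with sums of 3668 to 19699 in DENA plus TCPOBOP, 2441 to 14116 at 42 weeks and 7440 to 13247 at 28 weeks, against 9838 to 21590 in controls. Of 5 neutrophil markers 1 was lower in DENA plus TCPOBOP, 2 were lower and 1 higher at 42 weeks, and 1 was higher at 28 weeks. The 6 lymphocyte, 2 bile duct and 1 muscle and adipocyte markers had no call against control. Since these are bulk samples, fewer cells of a type and less RNA per cell cannot be told apart, and the part of these markers in the results was not tested.

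More genes of oxidative phosphorylation fell than rose in DENA plus TCPOBOP and after 42 weeks of TCPOBOP. After 42 weeks of TCPOBOP 48 of 82 members fell and 2 rose against controls (limma, adjusted p under 0.05), where 32.3% of all genes tested were called, 17.5% lower and 14.8% higher. In DENA plus TCPOBOP 21 members fell and 2 rose, where 26.9% of all genes were called, 15.0% lower and 11.9% higher. After 28 weeks of TCPOBOP alone a single member was called, a rise of Ndufa8, where 6.35% of all genes were called, 2.76% lower and 3.6% higher. The share of members called lower was 25.6% in DENA plus TCPOBOP and 58.5% at 42 weeks. In either direction 28.0% of members were called in DENA plus TCPOBOP, near the share of all genes. The median change of the members was -0.37 in DENA plus TCPOBOP, -0.51 at 42 weeks and -0.21 at 28 weeks, while the median of all genes tested stood between -0.02 and -0.01 in the same comparisons. The direction was shared beyond the called genes, with 75 of 82 members below 0 in DENA plus TCPOBOP, 74 at 42 weeks and 69 at 28 weeks. Of all 11975 genes tested 6107, 6122 and 6409 were below 0. At 28 weeks the direction did not hold within each slide, with 37 of 82 members below 0 on slide 2 and 56 on slide 4. The arrays of DENA plus TCPOBOP all lay below the controls for 12 members and above for 1 (11.7% and 9.81% of all genes tested). At 42 weeks this held for 26 and 3 members (14.2% and 12.6%), and at 28 weeks for 9 and 2 (17.5% and 15.8%). The comparisons with control share its 3 arrays. Of the falls, 17 genes were called in both, which is 81.0% of the 21 in DENA plus TCPOBOP and 35.4% of the 48 at 42 weeks.

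The counts leaned on the 3 control arrays. Without control 2, 8 members fell and 1 rose in DENA plus TCPOBOP, and 18 fell and 2 rose at 42 weeks. Without control 3 the counts were 8 lower and 2 higher, and 28 lower and 2 higher. With slide as a fixed block 33 members fell in DENA plus TCPOBOP and 17 at 42 weeks, and with slide as a random block 23 and 45, with 2 rises in each. Of the calls, 5 of 23 in DENA plus TCPOBOP and 19 of 50 at 42 weeks held whichever array was left out.

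**Figure D1:**
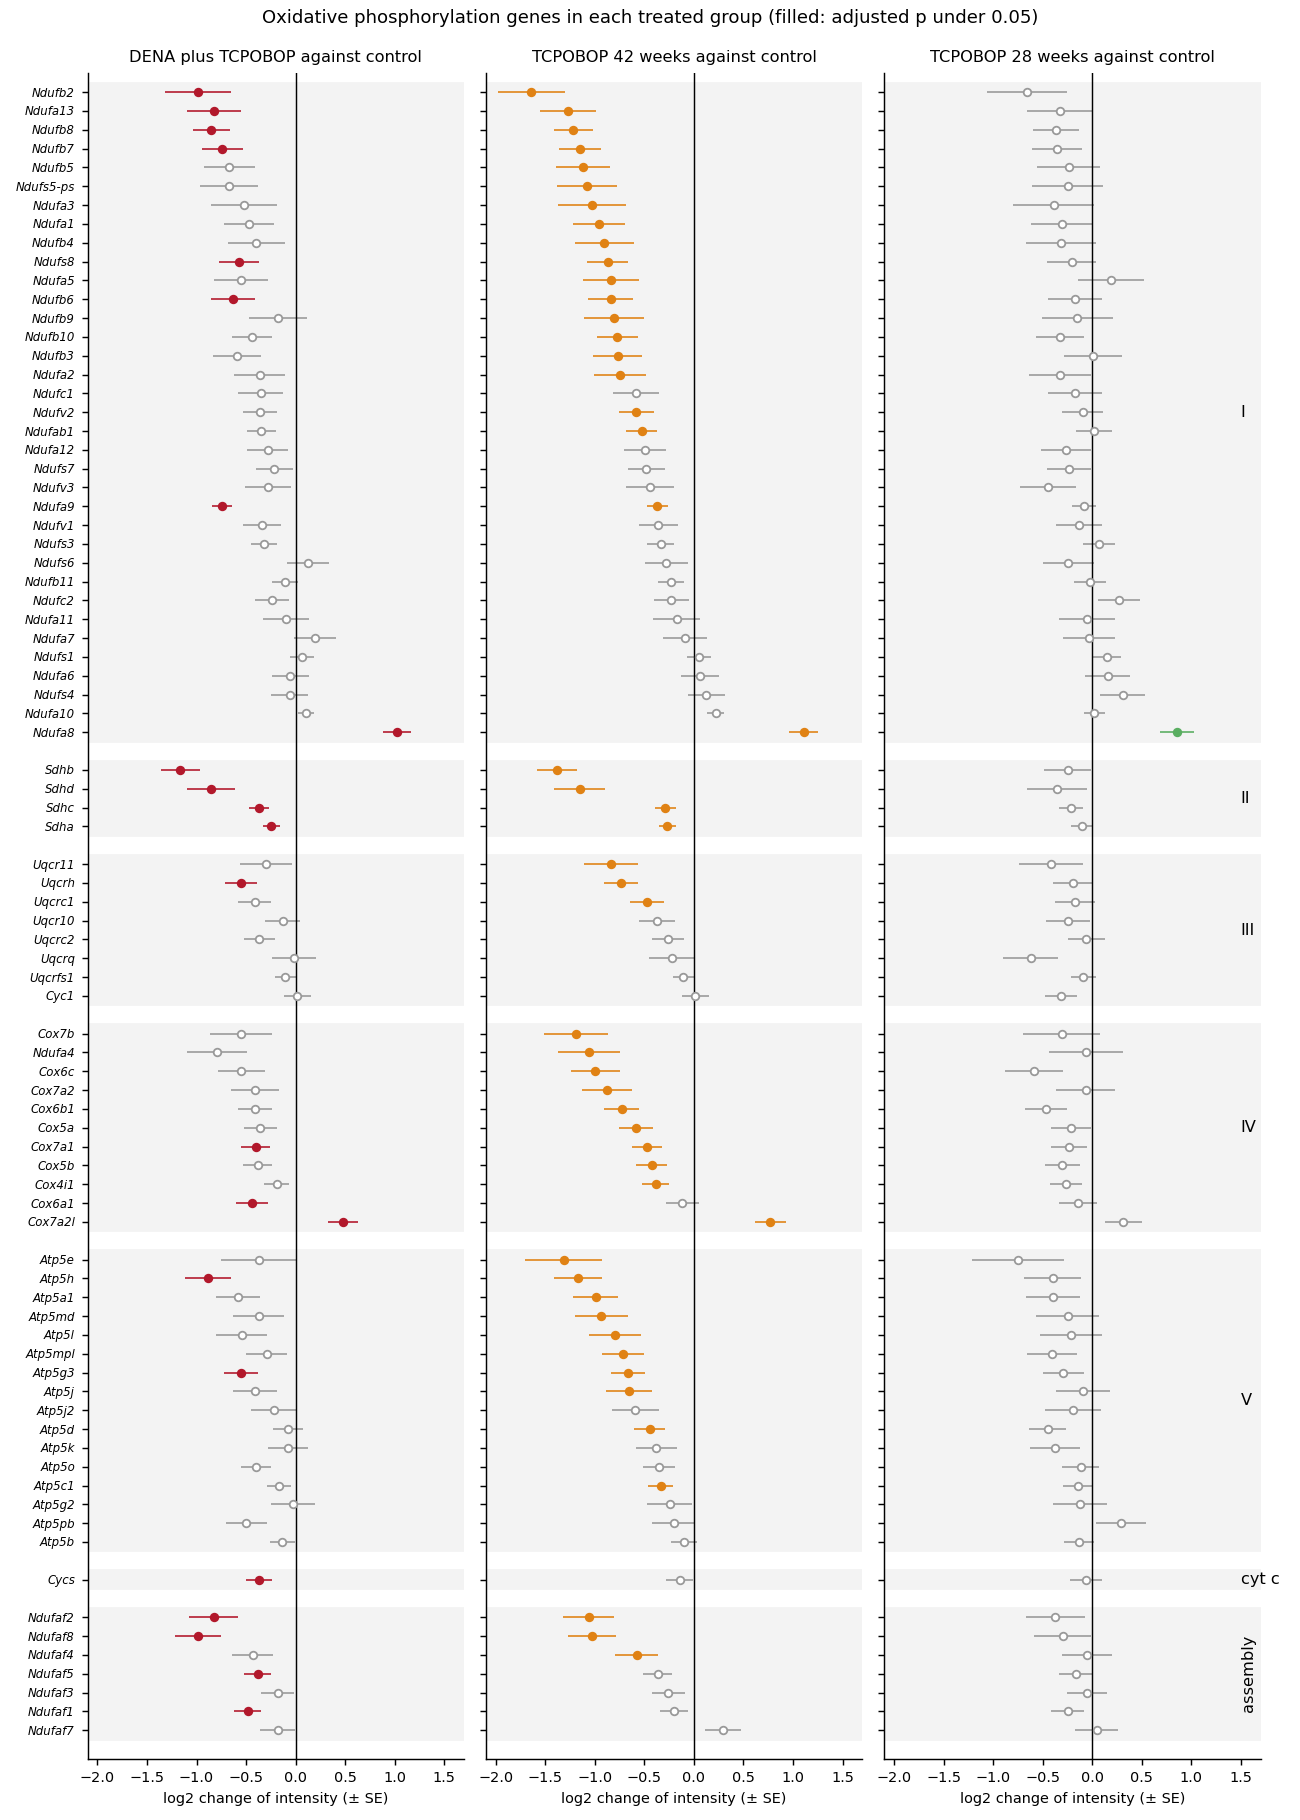
Log2 change of intensity against control for each of the 82 member genes, with bars for the SE, in DENA plus TCPOBOP (left), TCPOBOP 42 weeks (middle) and TCPOBOP 28 weeks (right), grouped by complex and sorted by the 42-week change. Filled points passed an adjusted p of 0.05, and most of them lie left of 0 in the left and middle panels, with Ndufa8 on the right in all 3.

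In complex II Sdhb, Sdhc and Sdhd were called lower in DENA plus TCPOBOP and at 42 weeks and not at 28 weeks. Sdha, the remaining gene of the 4, passed the same test in both but lay near background. Of all genes tested, 15.0% were called lower in DENA plus TCPOBOP and 17.5% at 42 weeks. Sdhb, the iron-sulfur subunit that carries electrons from the flavin to coenzyme Q, lay at 10.27 to 11.55 with a median of 10.95 in DENA plus TCPOBOP, 10.45 to 11.08 with a median of 10.87 at 42 weeks, 11.98, 11.86 and 11.97 at 28 weeks and 11.96, 12.10 and 12.49 in controls. All 16 arrays of the first 2 groups stood below every array of the other 2. The change was -1.16 ± 0.20 in DENA plus TCPOBOP (limma, adjusted p = 1.29e-04) and -1.39 ± 0.20 at 42 weeks (adjusted p = 2.37e-05), which left 0.446 and 0.383 of the control intensity, against -0.25 ± 0.24 at 28 weeks (adjusted p = 0.667). A second bright Sdhb probe changed by -1.27 in DENA plus TCPOBOP and -1.45 at 42 weeks, and a dimmer one by -0.66 and -0.80. Sdhd, a membrane anchor of the complex, lay at 9.07 to 10.35 with a median of 9.57 in DENA plus TCPOBOP, 8.80 to 9.82 with a median of 9.40 at 42 weeks, 10.44, 9.88 and 10.12 at 28 weeks and 10.14, 10.77 and 10.59 in controls. The 42-week arrays all lay below the controls, while DENA plus TCPOBOP overlapped them. Sdhd changed by -0.85 ± 0.25 in DENA plus TCPOBOP (adjusted p = 0.0131) and -1.15 ± 0.26 at 42 weeks (adjusted p = 0.00148). The other anchor, Sdhc, changed by -0.37 ± 0.10 and -0.29 ± 0.10 (adjusted p = 0.00806 and 0.0364). Sdha, the flavoprotein that oxidizes succinate, was detected on 4 arrays only, and on none of the 9 DENA plus TCPOBOP arrays, so its level there has only a bound. It averaged 6.81 ± 0.07 in DENA plus TCPOBOP and 7.06 ± 0.10 in controls (SD, n = 9 and n = 3), where 2 of 3 arrays detected it. Set against the bound in DENA plus TCPOBOP, which averaged 6.97, the control mean was at least 1.06-fold higher. That mean includes the control array that did not detect the probe. The measured values gave an adjusted p of 0.0345 (limma). At 42 weeks it was detected on 1 of 7 arrays, too dim for the size of a change to be read. In DENA plus TCPOBOP the Sdhd call was lost without control 2 or control 3, the Sdhc call without control 1, and the Sdha call without either control 2 or 3 or DENA plus TCPOBOP 1. At 42 weeks the Sdha call was lost without control 2 or 3 and the Sdhc call without control 1 or 2 or any of arrays 3, 4 and 7 of that group.

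Complex I, the NADH dehydrogenase, had 19 of 35 genes lower and 1 higher at 42 weeks, 7 lower and 1 higher in DENA plus TCPOBOP, and only the 1 rise at 28 weeks. The falls at 42 weeks were 17 of 29 accessory subunits and 2 of 6 core subunits, most of which carry the flavin or iron-sulfur clusters. Of the 10 Ndufb genes, which code for accessory subunits of the membrane arm, 4 fell in DENA plus TCPOBOP and 9 at 42 weeks, with median changes of -0.61 and -0.87. Ndufb2 had the largest fall at 42 weeks. It lay at 7.92 to 9.74 with a median of 8.85 in DENA plus TCPOBOP, 7.58 to 9.00 with a median of 8.02 at 42 weeks, 8.93, 8.94 and 9.35 at 28 weeks and 9.28, 10.41 and 9.49 in controls. Control 2 was well above the other controls, and the 42-week arrays lay below all 3 controls, whereas the DENA plus TCPOBOP arrays overlapped them. The change was -0.98 ± 0.33 in DENA plus TCPOBOP (limma, adjusted p = 0.0304), a call lost without control 2 or control 3, and -1.64 ± 0.34 at 42 weeks (adjusted p = 8.26e-04), or 0.321 of the control intensity.

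Ndufb8, another accessory subunit of the membrane arm, lay at 12.28 to 13.25 with a median of 12.83 in DENA plus TCPOBOP, 12.00 to 12.73 with a median of 12.35 at 42 weeks, 13.04, 13.33 and 13.50 at 28 weeks and 13.45, 13.78 and 13.73 in controls. Neither of the first 2 groups overlapped the controls. The fall was -0.85 ± 0.19 in DENA plus TCPOBOP (limma, adjusted p = 0.00186) and -1.22 ± 0.20 at 42 weeks (adjusted p = 6.44e-05). Its second, dimmer probe was lower as well, by -0.43 and -0.37. Ndufb7, which lies on the intermembrane face of the same arm, changed by -0.74 ± 0.21 and -1.15 ± 0.21 (adjusted p = 0.0107 and 3.01e-04), and neither of these groups overlapped the controls. In DENA plus TCPOBOP the call was lost without control 2 or 3. Ndufa13, an accessory subunit also known as a cell death regulator, lay at 12.79 to 13.91 with a median of 13.29 in DENA plus TCPOBOP, 12.04 to 13.70 with a median of 12.91 at 42 weeks, 13.46, 14.04 and 13.83 at 28 weeks and 13.98, 14.24 and 14.09 in controls. Again no array of DENA plus TCPOBOP or of the 42-week group reached the controls. Its changes were -0.82 ± 0.27 (adjusted p = 0.0299, lost when any 1 control was left out) and -1.27 ± 0.28 (adjusted p = 0.00156). Among the core subunits Ndufs8, which holds iron-sulfur clusters near the coenzyme Q site, changed by -0.57 ± 0.20 and -0.87 ± 0.21 (adjusted p = 0.0397 and 0.00275). The DENA plus TCPOBOP call was lost without control 2 or 3 or without any of 5 arrays of its own group (1, 2, 7, 8 and 9). Ndufv1, which binds NADH and the flavin, did not pass the test at -0.34 ± 0.19 and -0.36 ± 0.20 (adjusted p = 0.216 and 0.176). Ndufs1, a large iron-sulfur core subunit, was dim, detected on 17 of 22 arrays, with differences of 0.06 ± 0.12 and 0.05 ± 0.12 and no call.

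Against this direction Ndufa8, an accessory subunit on the intermembrane face of complex I, rose in all 3 treated groups, and it was the only member called at 28 weeks. It lay at 13.16 to 13.92 with a median of 13.46 in DENA plus TCPOBOP, 13.29 to 13.93 with a median of 13.64 at 42 weeks, 13.33, 13.21 and 13.52 at 28 weeks and 12.63, 12.49 and 12.38 in controls. Every one of the 19 treated arrays exceeded every control. The rise was 1.02 ± 0.14 in DENA plus TCPOBOP, 1.11 ± 0.15 at 42 weeks and 0.85 ± 0.17 at 28 weeks (limma, adjusted p = 1.42e-05, 6.66e-06 and 0.00352), or 2.03-fold, 2.16-fold and 1.81-fold. Among the treated groups no difference was called, the changes being -0.09 ± 0.11 for DENA plus TCPOBOP against 42 weeks and 0.26 ± 0.15 for 42 against 28 weeks. A second Ndufa8 probe rose by 1.25, 1.35 and 0.92 in the same order of groups. The 28-week call was lost when the raw intensities were background-corrected (normexp) and scaled to equal medians, called median scaling here. Cox7a2l, which joins complexes III and IV into supercomplexes, was the other member to rise. It lay at 11.52 to 12.26 with a median of 11.83 in DENA plus TCPOBOP, 11.77 to 12.47 with a median of 12.14 at 42 weeks, 11.79, 11.45 and 11.78 at 28 weeks and 11.47, 11.02 and 11.58 in controls. The 42-week arrays were all above the controls, of which control 2 was the lowest, and the other 2 treated groups overlapped them. Its difference was 0.48 ± 0.15 in DENA plus TCPOBOP (adjusted p = 0.0213, lost without control 2, without the slide 1 arrays and under median scaling or cyclic loess), 0.77 ± 0.15 at 42 weeks (adjusted p = 6.10e-04, lost under median scaling) and 0.32 ± 0.18 at 28 weeks (adjusted p = 0.394).

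**Figure D2:**
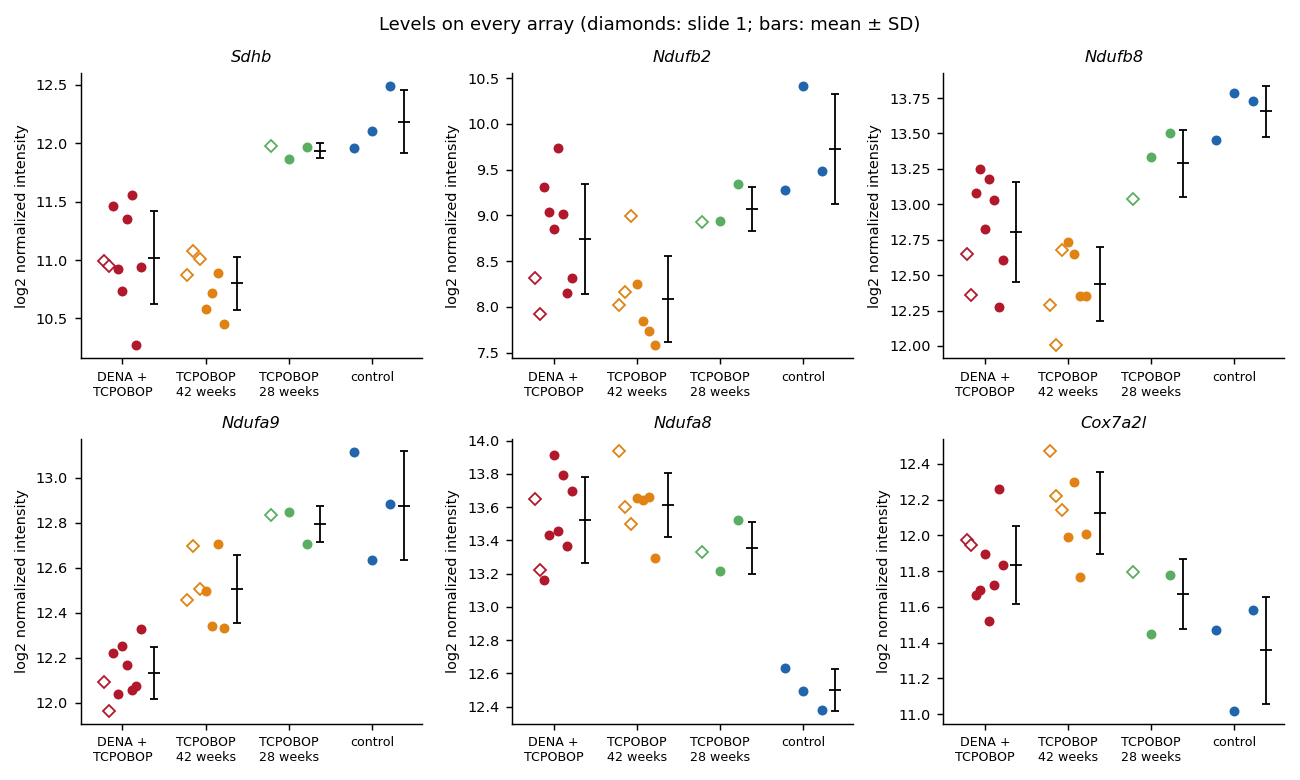
Log2 normalized intensity of 6 member genes on every array of DENA plus TCPOBOP, TCPOBOP 42 weeks, TCPOBOP 28 weeks and control, with open diamonds for arrays of slide 1 and black bars for the group mean ± SD. Sdhb and Ndufb8 lie lower in the first 2 groups than in control, Ndufa9 is lowest in DENA plus TCPOBOP, and Ndufa8 lies above control in all 3 treated groups.

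Treated groups were also compared with each other. DENA plus TCPOBOP received TCPOBOP for 28 weeks, so DENA and the weeks of dosing cannot be told apart in its comparison with 42 weeks. For 42 against 28 weeks, longer dosing and any difference in age cannot be told apart. Between DENA plus TCPOBOP and 42 weeks of TCPOBOP 1 member was called, a fall of Ndufa9, where 1.81% of all genes were called, 0.969% lower and 0.843% higher. Ndufa9 was also the only member whose arrays did not overlap, all lower, where 0.0752% of all genes lay wholly lower and 0.125% wholly higher. Ndufa9, an accessory subunit at the junction of the membrane and matrix arms of complex I, lay at 11.96 to 12.33 with a median of 12.09 in DENA plus TCPOBOP, 12.33 to 12.71 with a median of 12.50 at 42 weeks, 12.83, 12.85 and 12.70 at 28 weeks and 13.11, 12.63 and 12.88 in controls. The 9 DENA plus TCPOBOP arrays all lay below the 13 others. Its change was -0.37 ± 0.08 against 42 weeks (limma, adjusted p = 0.0191), -0.66 ± 0.10 against 28 weeks (adjusted p = 2.84e-04) and -0.74 ± 0.10 against controls (adjusted p = 1.17e-05). At 42 weeks it changed by -0.37 ± 0.11 against controls (adjusted p = 0.00961), a call lost without control 1. The difference from 42 weeks was no longer called after normexp background correction in any of its 3 forms or with slide as a fixed block, and was called with slide as a random block. The median change of the members against 42 weeks was 0.22, and 0.19 with slide as a random block, but -0.06 with slide as a fixed block and -0.18 on slide 1, which held arrays of both groups. Leaving out 42-week array 3 gave 7 members higher and 2 lower, and leaving out DENA plus TCPOBOP 8 gave 1 higher and 1 lower.

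Against 28 weeks of TCPOBOP, DENA plus TCPOBOP had 3 members lower (Sdhb, Atp5pb and Ndufa9), where 13.0% of all genes were called, 7.11% lower and 5.92% higher, and a member median of -0.18. All arrays lay lower for 5 members and higher for 0, where 6.61% and 5.97% of all genes did so. The Sdhb change was -0.92 ± 0.20 (limma, adjusted p = 0.00398). Atp5pb, subunit b of the peripheral stalk of complex V, lay at 11.58 to 11.89 with a median of 11.80 in DENA plus TCPOBOP, against 12.73, 12.44 and 12.48 at 28 weeks, and changed by -0.79 ± 0.21 (adjusted p = 0.0153), a call lost without 28-week array 1 or 3. A second bright Atp5pb probe gave -0.85, and 2 dimmer ones -0.35 and -0.03. The count was 19 lower with slide as a fixed block and 5 lower with slide as a random block. Leaving out DENA plus TCPOBOP 6, 7 or 9 gave 5, 7 and 3 lower, with 2 higher in the last case. The 42-week group had 15 members lower and 0 higher against 28 weeks, where 14.5% of all genes were called, 7.83% lower and 6.62% higher, and the median change was -0.37. All arrays lay lower for 14 members and higher for 1, where 8.64% and 7.74% of all genes did so. Complex I gave 8 of the 15 (Ndufa5, Ndufa13, Ndufab1, Ndufb3, Ndufb5, Ndufb7, Ndufb8 and Ndufs8), complex II 2 (Sdhb and Sdhd), complex IV 2 (Ndufa4 and Cox7a2), and Uqcrh, Atp5h and Ndufaf8 were the others. Sdhb changed by -1.14 ± 0.20 (adjusted p = 8.65e-04) and Ndufa5, an accessory subunit of the matrix arm, by -1.03 ± 0.28 (adjusted p = 0.0174). Both groups against 28 weeks rest on its 3 arrays: without 28-week array 2 the 42-week group had 2 calls and without array 3 only that of Sdhb, while leaving out its own arrays 1, 5 or 7 gave 9, 9 and 6. On slide 1 alone the median was -0.06 for 42 against 28 weeks, and on slide 2 it was -0.45. Median scaling moved the median of all genes to -0.13 for DENA plus TCPOBOP and -0.10 for 42 weeks against 28 weeks. Of the genes called, not of all genes tested, 22.3% and 28.2% were then higher, against 45.4% and 45.8% with the authors' values. Median scaling left 3 and 6 members lower and put the member medians at -0.45 and -0.57.

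Complex III, which hands electrons from coenzyme Q to cytochrome c, had 3 of 8 genes lower at 42 weeks, 1 in DENA plus TCPOBOP and 0 at 28 weeks. The share lower was 37.5% at 42 weeks, against 17.5% of all genes tested. In DENA plus TCPOBOP it was 12.5%, below the 15.0% of all genes. Uqcrh, the hinge protein, changed by -0.55 ± 0.16 in DENA plus TCPOBOP (limma, adjusted p = 0.0154, lost without control 2 or 3) and -0.74 ± 0.17 at 42 weeks (adjusted p = 0.00203). Its 42-week arrays lay at 12.98 to 13.41 with a median of 13.10, against 13.73, 13.88 and 14.06 in controls, with no overlap. At 42 weeks the small subunit Uqcr11 and the core protein Uqcrc1 fell by 0.84 and 0.48 (adjusted p = 0.0209 and 0.0367), calls that were lost without control 2 or 3, and for Uqcrc1 also without control 1 or 42-week array 5 or 6. Cyc1, the cytochrome subunit that docks cytochrome c, stood at 0.02 ± 0.13 and 0.01 ± 0.14 with no call. The Rieske subunit gene Uqcrfs1 was detected on 8 arrays only, too dim for a change to be read. Cycs, cytochrome c itself, fell in DENA plus TCPOBOP by 0.37 (adjusted p = 0.045) and not at 42 weeks (-0.14 ± 0.14, adjusted p = 0.47). The call was lost without control 1 or 3 or without any of 7 arrays of its group (1, 2, 3, 4, 6, 8 and 9). Of its dimmer probes, 1 gave -0.41 in DENA plus TCPOBOP and -0.76 at 42 weeks, where only the 42-week change was called, and the other -0.21 and -0.16 with no call. The difference of Cycs between the groups was -0.22 ± 0.10 (adjusted p = 0.226).

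Complex IV, the cytochrome oxidase, had 9 of 11 genes lower and 1 higher at 42 weeks, against 2 lower and 1 higher in DENA plus TCPOBOP and 0 called at 28 weeks. The share lower was 81.8% at 42 weeks, against 17.5% of all genes tested. In DENA plus TCPOBOP it was 18.2%, near the 15.0% of all genes. The largest falls at 42 weeks were those of Cox7b at -1.19 ± 0.33 (limma, adjusted p = 0.0074) and Ndufa4 at -1.06 ± 0.31 (adjusted p = 0.0131). Cox7b lay at 7.43 to 8.83 with a median of 8.10 at 42 weeks, against 8.54, 9.87 and 9.42 in controls, so the groups overlapped through the low control 1. Ndufa4 lay at 12.35 to 13.87 with a median of 12.97 at 42 weeks, against 13.96, 14.23 and 14.29 in controls, without overlap. The nuclear subunits that surround the catalytic core had smaller estimates: Cox5a fell by 0.58, Cox5b by 0.43 and Cox4i1 by 0.39 (adjusted p = 0.012, 0.0351 and 0.0326). All 5 of these calls at 42 weeks were lost without control 2, and all but those of Cox5a and Cox7b without control 3. Cox6b1, the form outside the testis, differed by -0.41 ± 0.17 in DENA plus TCPOBOP (adjusted p = 0.0871, no call) and changed by -0.73 ± 0.18 at 42 weeks (adjusted p = 0.00342). Of the isoform pairs, Cox7a2, the form common to most tissues, differed by -0.41 ± 0.24 in DENA plus TCPOBOP (adjusted p = 0.234, no call) and changed by -0.88 ± 0.25 at 42 weeks (adjusted p = 0.0104, lost without control 2). Cox7a1, the heart and muscle form, was dim and detected on 16 arrays, 7 of 9 in DENA plus TCPOBOP, 3 of 7 at 42 weeks and all 6 of the others, and was called lower in both (-0.40 ± 0.15 and -0.48 ± 0.15). Both calls were lost without control 2 or 3, and that in DENA plus TCPOBOP also without any of arrays 1, 2, 3, 7, 8 and 9 of its group. Cox6a1, the form found outside heart and muscle, fell in DENA plus TCPOBOP by 0.44 (adjusted p = 0.0422), a call lost on leaving out any control or 7 of the 9 arrays of its group, and differed by -0.12 ± 0.16 at 42 weeks with no call (adjusted p = 0.635). The difference of Cox6a1 between these groups was -0.32 ± 0.12 (adjusted p = 0.145).

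Complex V, the ATP synthase, had 10 of 16 genes lower at 42 weeks, 2 in DENA plus TCPOBOP and 0 at 28 weeks, and none higher. The share lower was 62.5% at 42 weeks, against 17.5% of all genes tested. In DENA plus TCPOBOP it was 12.5%, below the 15.0% of all genes. In the catalytic head the alpha subunit Atp5a1 changed by -0.99 ± 0.23 at 42 weeks (limma, adjusted p = 0.0021). Its second, dimmer probe gave -0.385. In the central stalk the gamma subunit Atp5c1 changed at 42 weeks by -0.33 ± 0.13 (adjusted p = 0.0479) and the epsilon subunit Atp5e by -1.31 ± 0.39 (adjusted p = 0.0132). The beta subunit Atp5b, the catalytic one, was not called in any comparison, at -0.14 ± 0.13, -0.10 ± 0.13 and -0.13 ± 0.15 in DENA plus TCPOBOP, at 42 and at 28 weeks, and its arrays all lay between 14.42 and 15.27, near the top of the scale. Atp5a1 lay at 10.49 to 11.24 with a median of 10.83 at 42 weeks, against 11.62, 12.23 and 11.82 in controls, without overlap. Atp5e lay at 7.78 to 9.46 with a median of 8.11 at 42 weeks, against 8.66, 10.52 and 9.63 in controls, a wide spread that overlapped the treated arrays, and its call was lost without control 2 and with slide as a fixed block. Atp5h, subunit d of the peripheral stalk, lay at 10.61 to 11.62 with a median of 11.31 in DENA plus TCPOBOP and 10.07 to 11.24 with a median of 11.10 at 42 weeks, against 11.59, 11.67 and 11.68 at 28 weeks and 11.86, 12.37 and 11.92 in controls. All 19 treated arrays were below the 3 controls. Atp5h changed by -0.88 ± 0.23 in DENA plus TCPOBOP (adjusted p = 0.00716, lost without control 2) and -1.17 ± 0.24 (adjusted p = 7.72e-04) at 42 weeks, and differed by -0.40 ± 0.28 at 28 weeks with no call. The other fall in DENA plus TCPOBOP was that of Atp5g3, a subunit of the proton-carrying ring, by 0.55 (adjusted p = 0.0199), lost without control 2 or 3. The Atp5c1 call at 42 weeks was lost on leaving out any control or any array of its group but number 4.

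Of the 7 Ndufaf genes 4 were lower in DENA plus TCPOBOP (Ndufaf1, Ndufaf2, Ndufaf5 and Ndufaf8) and 3 at 42 weeks (Ndufaf2, Ndufaf4 and Ndufaf8). These are 57.1% and 42.9%, against 15.0% and 17.5% of all genes tested. Ndufaf2, a chaperone of late complex I assembly, lay at 7.99 to 9.32 with a median of 8.96 in DENA plus TCPOBOP and 7.78 to 8.87 with a median of 8.55 at 42 weeks, against 9.13, 9.24 and 9.26 at 28 weeks and 9.50, 9.71 and 9.53 in controls, below the controls on all treated arrays. It changed by -0.83 ± 0.25 in DENA plus TCPOBOP (limma, adjusted p = 0.0155, lost without control 2) and -1.06 ± 0.25 at 42 weeks (adjusted p = 0.00269). Ndufaf8 changed by -0.98 ± 0.23 and -1.03 ± 0.24 (adjusted p = 0.00297 and 0.00228), and the 42-week call was lost with slide as a fixed block. Ndufaf5 had a second probe of opposite sign (0.03) in DENA plus TCPOBOP, where the brighter one gave -0.38 ± 0.14 (adjusted p = 0.0446), and leaving out any control or any of 6 arrays of its group ended the call.

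The fall of the set was not even across arrays. For each array the median over the 82 genes of the difference from the control mean ran from -0.77 to -0.05 in DENA plus TCPOBOP (median -0.23), from -0.68 to -0.23 at 42 weeks (median -0.57), over -0.41, -0.11 and -0.10 at 28 weeks, and over -0.18, 0.11 and 0.04 in controls. In DENA plus TCPOBOP arrays 1, 2, 8 and 9 lay between -0.77 and -0.41 and the other 5 between -0.23 and -0.05, so that control 1 fell within their range. At 42 weeks 6 of 7 arrays lay between -0.68 and -0.51 and array 3 stood apart at -0.23. Arrays 1 and 2 of DENA plus TCPOBOP, arrays 1, 2 and 3 of the 42-week group and array 1 of the 28-week group were on slide 1. Within slide 3 the median change of the members in DENA plus TCPOBOP against its control was -0.32, and within slide 4 it was -0.46. For 42 weeks on slide 2 it was -0.47, with 75 of 82 members and 49.2% of all genes tested below 0. Slides 2, 3 and 4 held 1 control each, and these arrays are part of the main fit. At 28 weeks the sign differed between slides, 0.04 on slide 2 and -0.13 on slide 4. With the slide 1 arrays left out, an alternative added after the data had been seen, 15 members fell and 1 rose in DENA plus TCPOBOP, 50 fell and 2 rose at 42 weeks, and 1 rose at 28 weeks.

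**Figure D3:**
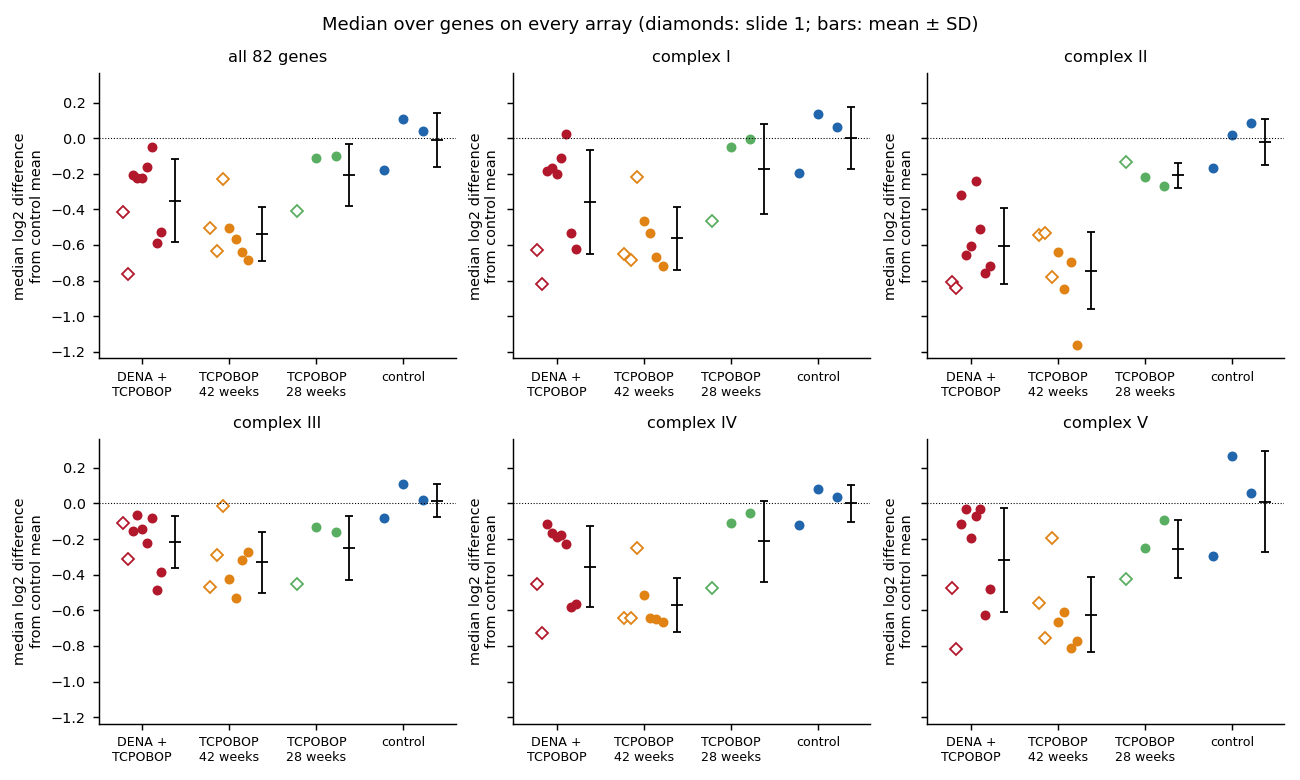
Median log2 difference from the control mean over all 82 genes and over the genes of each complex, for every array of DENA plus TCPOBOP, TCPOBOP 42 weeks, TCPOBOP 28 weeks and control, with open diamonds for slide 1 and bars for the mean ± SD. The 9 DENA plus TCPOBOP arrays spread from -0.77 to -0.05 over all genes, while 6 of 7 arrays at 42 weeks lie between -0.68 and -0.51.

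The promoters of 5 genes on which the results turn are given as windows running from 250 bases before to 50 bases after the transcription start (RefSeq, GRCm38.p6, on the gene's strand, 5′ to 3′). Matches to 4 motifs of factors known to act on nuclear genes of the respiratory chain were searched on both strands: the NRF1 motif, CCGGAAG (ETS family, GABP), AANATGGC (YY1) and AAGGTCA (the core element of ERR alpha). Capitals mark their matches. Sdhb (chr4:140961021-140961320, plus strand), Ndufb8 (chr19:44555393-44555692, minus strand) and Ndufa9 (chr6:126849095-126849394, minus strand) stand for genes that fell, and Ndufa8 (chr2:36049289-36049588, minus strand) and Cox7a2l (chr17:83514284-83514583, minus strand) for the 2 that rose.
Sdhb: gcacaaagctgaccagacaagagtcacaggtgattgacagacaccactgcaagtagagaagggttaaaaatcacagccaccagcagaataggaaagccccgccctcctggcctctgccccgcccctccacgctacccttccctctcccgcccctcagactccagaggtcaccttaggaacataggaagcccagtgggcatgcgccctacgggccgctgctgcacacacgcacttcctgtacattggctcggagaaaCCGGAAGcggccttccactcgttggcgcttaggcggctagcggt
Ndufb8: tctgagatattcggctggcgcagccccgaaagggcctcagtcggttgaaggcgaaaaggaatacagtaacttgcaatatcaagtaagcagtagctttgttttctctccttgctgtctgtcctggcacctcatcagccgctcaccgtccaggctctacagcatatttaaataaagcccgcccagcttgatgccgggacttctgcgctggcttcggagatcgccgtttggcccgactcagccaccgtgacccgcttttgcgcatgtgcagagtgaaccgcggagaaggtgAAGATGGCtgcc
Ndufa8: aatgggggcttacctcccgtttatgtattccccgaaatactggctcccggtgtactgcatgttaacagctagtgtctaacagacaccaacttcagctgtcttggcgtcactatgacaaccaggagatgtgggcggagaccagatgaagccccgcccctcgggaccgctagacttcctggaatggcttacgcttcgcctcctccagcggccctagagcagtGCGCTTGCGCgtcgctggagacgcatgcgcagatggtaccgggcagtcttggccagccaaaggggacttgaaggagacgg
Cox7a2l: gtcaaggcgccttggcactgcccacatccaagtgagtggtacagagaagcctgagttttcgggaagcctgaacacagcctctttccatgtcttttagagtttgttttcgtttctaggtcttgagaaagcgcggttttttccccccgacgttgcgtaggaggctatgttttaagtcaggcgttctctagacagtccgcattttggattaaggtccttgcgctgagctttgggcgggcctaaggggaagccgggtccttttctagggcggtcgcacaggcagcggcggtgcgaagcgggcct
Ndufa9: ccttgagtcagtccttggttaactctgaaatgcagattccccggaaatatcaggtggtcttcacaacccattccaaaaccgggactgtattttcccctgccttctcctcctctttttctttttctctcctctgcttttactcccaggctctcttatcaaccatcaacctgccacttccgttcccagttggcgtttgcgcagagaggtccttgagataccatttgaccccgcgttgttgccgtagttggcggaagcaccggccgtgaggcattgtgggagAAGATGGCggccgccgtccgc

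The Sdhb window holds 1 match to the ETS motif, beginning at base 7 of the transcript. Ndufb8 and Ndufa9, both lower, each hold 1 YY1 match, beginning at bases 39 and 30, and Ndufa8 holds 1 NRF1 match that begins 30 bases upstream of the start. The Cox7a2l window holds none of the 4 motifs. Promoter windows were found for 70 of the 82 members, 75 windows in all. The NRF1 motif stood in 25.3% of member windows and 4.6% of all 32851 windows, the ETS motif in 24% and 8.86%, the YY1 motif in 25.3% and 6.05%, and the ERR element in 9.33% and 4.72%. Against the 12296 windows of tested genes the shares were 8.85%, 15.7%, 7.56% and 3.57%. Of 44 windows of members that fell at 42 weeks, 10 held the NRF1 motif, 14 the ETS motif, 9 the YY1 motif and 6 the ERR element. Of 29 windows of members that were not called, 8, 4, 10 and 1 did. These are counts of letters, not of bound sites.

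No mitochondrially encoded subunit of the same complexes was called. Of 8 such genes measured (ND1, ND4, ND4L, ND5 and ND6 of complex I, CYTB of complex III, COX2 of complex IV and ATP6 of complex V) 0 were called in each of the 6 comparisons, and their median change was -0.04 in DENA plus TCPOBOP, 0.07 at 42 weeks and 0.03 at 28 weeks. COX2 differed by -0.15 ± 0.20 in DENA plus TCPOBOP and -0.38 ± 0.20 at 42 weeks (limma, adjusted p = 0.64 and 0.161), and ND4L by 0.19 ± 0.37 and 0.61 ± 0.38 (adjusted p = 0.761 and 0.247). CYTB and ND4 averaged 15.22 and 15.11 over all arrays, near the top of a scale that ends at an intensity of 46395 before the logarithm. At an unadjusted p under 0.05 limma gave 0 of the 8 in each comparison too. The list was added after the data had been seen.

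Other mitochondrial genes were mixed. Among all genes tested 15.0% were called lower and 11.9% higher in DENA plus TCPOBOP, and 17.5% and 14.8% at 42 weeks. The TCA cycle list left out complex II and took in the pyruvate dehydrogenase genes Pdha1, Pdhb and Dlat. Of its 15 genes 5 rose and 2 fell in DENA plus TCPOBOP, and 4 rose and 3 fell at 42 weeks. The rises in both groups included Pdha1 (0.97 and 1.00) and Pdhb (0.67 and 1.15), which are not enzymes of the cycle itself. Mdh2, the mitochondrial malate dehydrogenase, rose by 1.60 and 1.66 (limma, adjusted p = 1.06e-06 and 9.79e-07), and Idh3a, a subunit of the NAD-dependent isocitrate dehydrogenase, by 1.05 and 1.22 (adjusted p = 0.00333 and 0.00102). The 71 mitochondrial ribosomal proteins had 4 higher and 8 lower in DENA plus TCPOBOP and 4 higher and 9 lower at 42 weeks, with medians of -0.11 in both. The 60 cytosolic ribosomal proteins had 20 higher and 2 lower in DENA plus TCPOBOP and 16 higher and 0 lower at 42 weeks, with medians of 0.38 and 0.17. Both ribosomal lists were added after the data had been seen. Of 25 genes of mitochondrial import and the outer membrane 1 rose and 1 fell in DENA plus TCPOBOP and 3 rose and 1 fell at 42 weeks. Coenzyme Q synthesis had 5 of 10 genes lower and 1 higher in DENA plus TCPOBOP and 4 lower and 1 higher at 42 weeks. Coq8a, an atypical kinase of that pathway, was lower in all 3 groups at -0.97, -0.91 and -0.79. Assembly factors of the complexes, a list that includes the Ndufaf members except Ndufaf8, had 11 of 35 lower and 2 higher in DENA plus TCPOBOP and 12 lower and 4 higher at 42 weeks. Acad9, which acts in complex I assembly, fell in DENA plus TCPOBOP by 1.00, and Sdhaf3, an assembly factor of complex II that serves Sdhb, by 0.97 there and by 1.05 at 42 weeks.

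More regulators of mitochondrial genes fell than rose. Of 19 measured, 6 fell and 1 rose in DENA plus TCPOBOP, 8 fell and 0 rose at 42 weeks, and 2 fell at 28 weeks, with medians of -0.21, -0.22 and -0.08. The shares lower were 31.6%, 42.1% and 10.5%, against 15.0%, 17.5% and 2.76% of all genes tested. Ppargc1b, a coactivator of mitochondrial genes, changed by -0.79 ± 0.24 in DENA plus TCPOBOP and -1.02 ± 0.25 at 42 weeks (limma, adjusted p = 0.0175 and 0.00331). Esrra, which codes for ERR alpha, differed by -0.21 ± 0.23 in DENA plus TCPOBOP with no call (adjusted p = 0.581) and changed at 42 weeks by -0.76 ± 0.24 (adjusted p = 0.0204). Ppara, the receptor for fatty acids that drives their oxidation in liver, fell in DENA plus TCPOBOP by 0.64 (adjusted p = 8.24e-05), at 42 weeks by 0.74 (adjusted p = 1.77e-05) and at 28 weeks by 0.56 (adjusted p = 0.0085). Pprc1, a coactivator related to Ppargc1b, rose in DENA plus TCPOBOP by 0.73 (adjusted p = 0.0181). Polg2 changed by -0.76 in DENA plus TCPOBOP and -0.70 at 42 weeks (limma, adjusted p = 3.27e-05 and 1.13e-04). Nrf1, Gabpa and Gabpb1, which code for factors whose motifs were searched in the promoters, had no call against control in any treated group. Against 28 weeks Nrf1 was higher in DENA plus TCPOBOP and at 42 weeks, by 0.40 and 0.42 (limma, adjusted p = 0.043 and 0.037). Yy1, which codes for the factor of the YY1 motif, was not detected on any control array.

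**Figure D4:**
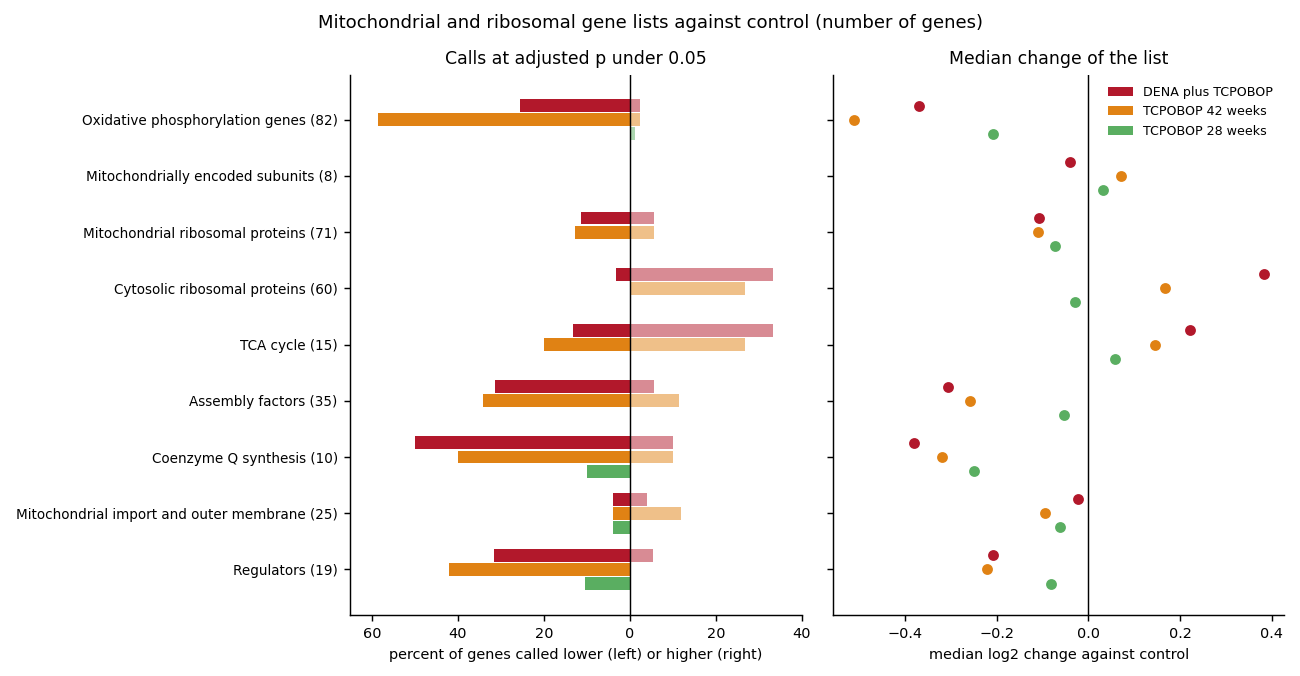
Left, percent of the genes of each list called lower (bars to the left) or higher (paler bars to the right) against control. Right, median log2 change of each list. Colours stand for DENA plus TCPOBOP, TCPOBOP 42 weeks and TCPOBOP 28 weeks, and the number of genes follows each name. The oxidative phosphorylation genes have 58.5% lower at 42 weeks, while the 8 mitochondrially encoded subunits have no call.

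Within groups many members varied together, but pairs of other genes were not measured for comparison. After removing each group's mean from each gene, the median Pearson correlation over the 22 arrays was 0.33 for all 3321 pairs of members, 0.47 for pairs within complex I, 0.42 within complex IV, 0.37 within complex V, 0.25 within complex II and 0.09 within complex III. The correlation of a gene with the median of the other members was above 0.5 for 54 of 82 genes and below 0 for 9, and it ran from -0.48 for Uqcrc2, a core protein of complex III, to 0.91 for Ndufa5. The median deviation of the members correlated with that of the 71 mitochondrial ribosomal proteins (Pearson r = 0.85, Spearman rho = 0.85, and r = 0.83 without the 2 arrays farthest out) and of the 60 cytosolic ribosomal proteins (r = 0.75, rho = 0.75, and 0.58 without 2 arrays). For the mitochondrially encoded subunits r was -0.29, for the TCA cycle -0.32 and for the hepatocyte markers 0.003. These values describe 22 arrays, and the genes share each array's RNA, hybridization and slide, so no test was attached.

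**Figure D5:**
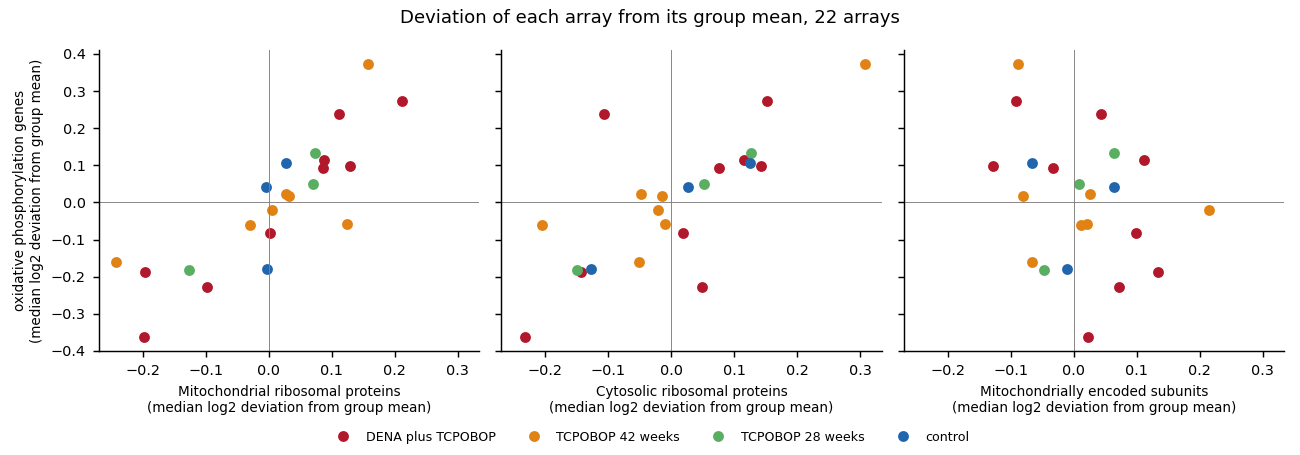
Median log2 deviation of the oxidative phosphorylation genes from their group means (vertical axis) against that of the mitochondrial ribosomal proteins, cytosolic ribosomal proteins and mitochondrially encoded subunits (horizontal axes), with 1 point for each of the 22 arrays coloured by group. The points rise together in the first panel (r = 0.85) and not in the panel of mitochondrially encoded subunits (r = -0.29).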

How the data were processed

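Whole-genome mouse bead arrays were read with BeadStudio 3.0.19.0, per the submitters' processing notes. The authors deposited a normalized intensity and a detection p-value per probe, and a non-normalized intensity table. The normalization method is not given in the sources used here. All 22 arrays share the same lowest (80.34) and highest (46395) normalized intensity, and the values of the series matrix equal them.

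The log2 of the deposited normalized intensity was fitted with limma 3.58.1 in R 4.3.3 (lmFit and eBayes, 4 group means, all 22 arrays), after keeping probes detected at p under 0.05 on at least 3 arrays (22622 of 45281). Probes with 1 symbol were reduced to the brightest per gene, and p-values were adjusted over 11975 genes by the Benjamini-Hochberg method at 0.05. Values for second probes come from a fit over all kept probes. The fit was tested on simulated data, and tables were handled in Python 3.11.15. The number of arrays limits the precision, and slide, scaling and array weights moved the counts of calls. The labels call arrays biological replicates without saying that they came from separate mice, so p-values measure the spread between these samples.

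Genes were named by a rule: the largest called changes of each comparison, set subunits and isoforms, each complex's brightest and dimmest member, and members whose probes disagree. Atp5g3, Ndufab1, Ndufaf4, Ndufb3, Ndufb7, Ndufs8, Uqcr11, Uqcrc2 and Uqcrh fall outside it and were named after their values were seen, as were the regulators Nrf1, Gabpa, Gabpb1 and Yy1. The members and lists were chosen with earlier results of these data known. The ribosomal and mitochondrially encoded lists and the fit without slide 1 were added after the data had been seen. Replicate numbers do not pair the samples: over 22 same-numbered pairs the correlation of deviations from group means had a median of 0.037, with 3 pairs above 0.1. Alternatives covered background correction, normalization, probe filter, probe choice, slide, replicate block, array weights and leaving out each array. Earlier time points of the study were not analysed here.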

Additional observations from a re-analysis of the deposited data

Results flagged for a closer look

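In 11 of 92 groups of values tested, 1 array lay far from the rest of its group by Dixon's criterion, where chance gives about 1 in 20. In DENA plus TCPOBOP, array 8 was low for Atp5b (14.42, the others 14.87 to 15.21) and for Ndufaf1 (10.17, the others 10.57 to 10.86). Array 7 was high for Cox6a1 (13.22, the others 12.36 to 12.67) and for Cycs (11.97, the others 11.22 to 11.59). Array 2 was low for Ndufaf5 (7.90, the others 8.14 to 8.34) and array 1 for Sdha (6.64, the others 6.78 to 6.88), a probe not detected on any array of the group.

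At 42 weeks of TCPOBOP all the far values belonged to array 3, which was high for Atp5e (9.46, the others 7.78 to 8.36) and Cox5b (13.58, the others 12.93 to 13.21). Its median difference from the control mean was -0.229 over all members (the others -0.683 to -0.507), -0.248 over complex IV (the others -0.667 to -0.514) and -0.195 over complex V (the others -0.811 to -0.558).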

How the results depend on the processing

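The 51 calls of genes named by the rule were followed through the alternatives, and none changed direction. Of their alternative results 1133 were labelled the same and 222 weaker. For the counts and medians 284 alternative values stayed close to those reported while 44 moved. Leaving out 1 array at a time gave 9 to 26 members called in DENA plus TCPOBOP (medians -0.44 to -0.31), 20 to 55 at 42 weeks (-0.58 to -0.48) and 1 at 28 weeks (-0.29 to -0.10). Between treated groups it gave 1 to 9 for DENA plus TCPOBOP against 42 weeks (0.17 to 0.27), 2 to 7 against 28 weeks (-0.28 to -0.12), and 1 to 21 for 42 against 28 weeks (-0.46 to -0.28).

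After normexp and median scaling 11 members were called in DENA plus TCPOBOP, 27 at 42 weeks, 0 at 28 weeks, 0 for DENA plus TCPOBOP against 42 weeks and 6 for 42 against 28 weeks, with medians of -0.45 and -0.57 for DENA plus TCPOBOP and 42 weeks against 28 weeks. Normexp with quantile normalization or cyclic loess gave 0 for DENA plus TCPOBOP against 42 weeks, and cyclic loess a median of -0.68 at 42 weeks. Slide as a fixed block gave 35, 19 (median -0.36), 0 (median -0.056) and 19 for DENA plus TCPOBOP, for 42 weeks, and for DENA plus TCPOBOP against 42 and 28 weeks. As a random block it gave 5 in the last. Array weights gave 41 in DENA plus TCPOBOP, 4 at 28 weeks, 13 for DENA plus TCPOBOP and 31 for 42 weeks against 28 weeks. The fit on only the groups compared gave 2 at 28 weeks, the stricter filter 5 for DENA plus TCPOBOP against 28 weeks, and no filter 8 for 42 against 28 weeks. Within 1 slide the median was 0.0445 at 28 weeks (slide 2), -0.18 for DENA plus TCPOBOP against 42 weeks and -0.0598 for 42 against 28 weeks (slide 1). With the replicate number as a block 14 members were called in DENA plus TCPOBOP, 2 against 42 weeks and 6 against 28 weeks, and 44, 1 and 15 in the other comparisons (42 weeks, 28 weeks, and 42 against 28 weeks). The cause of these shifts was not tested. With 3 arrays in 2 groups, single arrays decide many calls, and a probe near background has only a bound there.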
